A study of Schizosaccharomyces pombe with 4 samples.

Results

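The H3K9me3 maps of the fission yeast strains IRD1 and IRD2 were set directly against each other, using the arrays titled for those strains, which are 2 of the 4 arrays in the series. Both strains are Schizosaccharomyces pombe in exponential growth at 32 °C, and both titles also carry REIID. The labels spell out neither REIID nor the strain names IRD1 and IRD2, so the alleles behind them are not stated here, and IRD1 was identified from its title because the genotype and antibody values of that sample are exchanged. There is 1 array a strain, and the differences reported here therefore have neither a p-value nor an error between cultures. Fixed chromatin was sheared to between 400 and 600 bp and precipitated with an antibody to H3K9me3. Precipitated DNA was read in the red channel and whole-cell extract DNA (the input) in the green channel of a tiling array of 60-base probes.

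H3K9me3 is histone H3 trimethylated on lysine 9. In fission yeast the methyltransferase Clr4 writes this mark, and proteins of the HP1 family such as Swi6 bind it and keep the chromatin silent. Its main domains are the repeats of the centromeres, the chromosome ends and the silent mating-type region, where copies of the mating-type genes are stored unexpressed between inverted repeats that act as boundaries in wild-type cells. Outside such boundaries the mark normally drops over a short distance, so both the level inside a domain and the position of its edge are informative.

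The arrays tile the genome every 300 bp with 41551 probes each, of which 38502 on the IRD1 array and 41320 on the IRD2 array gave a usable ratio, and 38328 gave one on both. A level is log2 of ChIP over input, with the median probe of the array at 0. A difference is the median over probes of IRD1 minus IRD2 per probe, on the log2 scale, and a range in parentheses after it gives the quartiles over probes, a measure of how even a region is and not of the error between cultures. Positions were read from the probe names. Their genome build is not given in the sources used here, and regions are therefore called by position with no gene names. On the chromosome arms, outside the domains, the difference was -0.05 (-0.27 to 0.18) over 37152 probes. Of these arm probes, 44.1% were higher in IRD1, 0.304% were higher by at least 1 and 0.0996% were lower by at least 1. The noise of a single arm probe, estimated from the steps in the difference between neighbouring probes, was 0.24. The SD of the difference over all arm probes was 0.34. The middle 50% of arm probes spanned 0.94 on the IRD1 array and 1.16 on the IRD2 array, so the arrays differ in the spread of their ratios. For this reason 3 scalings stand beside the domain values where they change them: equal centromere levels, equal arm spread, and loess within each array.

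Inside the mating-type domain H3K9me3 was higher in IRD1. The level was 5.97 in IRD1 and 5.07 in IRD2, and the difference was 0.72 (0.44 to 0.95), or 1.65-fold, over the 69 probes measured on both arrays. Of these probes, 66 were higher in IRD1, 11 of them by at least 1, against the arm shares of 44.1% and 0.304%. The domain consists of a run of 20 such probes on chromosome 2, from 2130900 to 2138400, and a run of 49 on a mating-type contig that the array carries separately, from 19200 to 39300. The difference was 0.73 on chromosome 2 and 0.71 on the contig. Whether both runs read the same DNA was not tested, so they are not separate checks. The difference was 0.39 with equal centromere levels, 1.63 with equal arm spread and 1.74 with loess. Equal arm spread multiplies IRD2 by 0.83, so at these positive levels it could only raise the difference. Loess also raised the difference of mitochondrial DNA, from 0.21 to 2.33, so its value is a weak check of the direction. Without these scalings, most of the difference lay in the ChIP channel, where IRD1 exceeded IRD2 by 0.62, while the input channel differed by -0.07. By part, the input differed by -0.19 on chromosome 2 and by 0.003 on the contig.

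The excess of IRD1 was uneven along the contig part of the domain. From 24000 to 27000 the level was 6.03 in IRD1 and 5.28 in IRD2, a difference of 0.75 with all 10 probes higher in IRD1. From 21000 to 24000 the difference was 1.03 over 6 probes. These probes were all higher in IRD1, and their input was also higher there, by 0.30. From 27000 to 36000 the differences per 3 kb lay between 0.52 and 0.57. Away from the edges the smallest values were near the middle, where both strains were near their highest level. At 29100 the level was 6.22 in IRD1 and 6.10 in IRD2, and at 29400 it was 6.35 in IRD1 and 6.24 in IRD2. At 31800 IRD1 was lower, with 6.19 against 6.27 in IRD2. The highest IRD1 probe of the contig, at 29700, had 7.04 in IRD1 and 6.23 in IRD2. At that probe the ChIP signals differed by only 0.04 and the input by -0.81, so there most of the ratio difference lay in the input. Near the right edge, at 38100, the level was 6.26 in IRD1 and 4.90 in IRD2, which returned to a difference of 1.36.

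**Figure D1:**
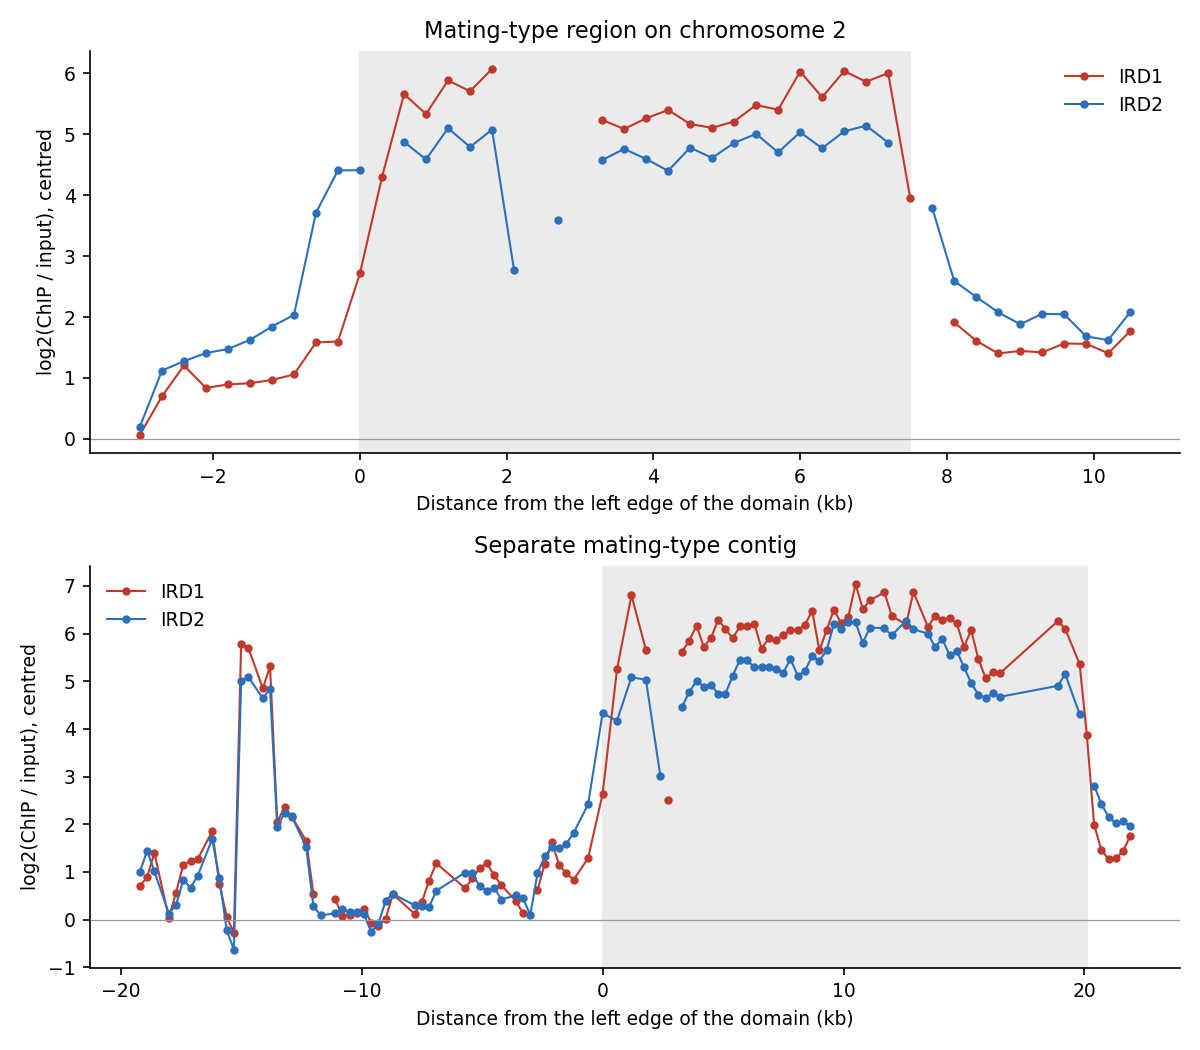
H3K9me3 level (log2 of ChIP over input, centred) per probe in IRD1 and IRD2, against the distance in kb from the left edge of the domain, on chromosome 2 (upper panel) and on the mating-type contig (lower panel). The shaded span is the domain, and gaps are probes without a usable ratio. IRD1 lies above IRD2 for most of the shaded span, and IRD2 lies above IRD1 just outside both edges.

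At the left edge of the domain the order of the strains was the opposite. At 2130300 on chromosome 2 the level was 1.58 in IRD1 and 3.71 in IRD2, a difference of -2.13. At 2130600 it was 1.60 in IRD1 and 4.41 in IRD2, a difference of -2.81 and the largest one among the probes within 3 kb of either edge. At 2130900, the first probe of the domain, it was 2.72 in IRD1 and 4.41 in IRD2, a difference of -1.69. IRD2 thus had a high level on 3 probes where IRD1 stood at intermediate values. From 2131500, the next position measured on both arrays, the order turned, with 5.66 in IRD1 and 4.87 in IRD2. The outermost probe with a level of at least 3 was 2131200 in IRD1 and 2130300 in IRD2, which is 0.9 kb farther out in IRD2. On the left of the contig it was 19800 in IRD1 and 19200 in IRD2, 0.6 kb farther out in IRD2. On the right of chromosome 2 it was 2138400 in IRD1 and 2138700 in IRD2. On the right of the contig it was 39300 in IRD1 and 39000 in IRD2. Of these probes, 2131200, 2138400 and 39300 had no usable ratio in IRD2, and 2138700 had none in IRD1. On the right the outermost probe of 1 strain was thus missing in the other, so the order of reach cannot be told there.

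Beyond these probes a smaller difference of the same sign continued for about 3 kb. At 2130000 the level was 1.06 in IRD1 and 2.04 in IRD2. At 2129400 it was 0.91 in IRD1 and 1.63 in IRD2. At 2128500 it was 1.21 in IRD1 and 1.28 in IRD2, so the arrays were close there. Over the 10 probes within 3 kb outward of the left edge the difference was -0.65 (-0.95 to -0.46), and 0 of 10 probes were higher in IRD1. From 3 to 10 kb outward the difference was -0.02, with 11 of 23 probes higher in IRD1. The share over all arm probes was 44.1%, but arm probes at levels like those of the 10 probes also ran lower in IRD1. Arm probes were sorted into 20 bins by the mean of both arrays. The difference was -0.24 (-0.43 to -0.01) in bin 19 and -0.22 (-0.44 to 0.01) in bin 20, the highest. The contig showed a similar left edge. At 19200 the level was 2.63 in IRD1 and 4.32 in IRD2, and at 18600 it was 1.29 in IRD1 and 2.42 in IRD2. At 19800 the order had turned, with 5.25 in IRD1 and 4.17 in IRD2.

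At the right edge IRD2 was again higher just outside the domain. The probe at 2139000 had 1.91 in IRD1 and 2.59 in IRD2, and that at 2139300 had 1.61 in IRD1 and 2.33 in IRD2. Over the 9 probes measured within 3 kb outward of the right edge the level was 1.56 in IRD1 and 2.05 in IRD2, and the difference was -0.48 (-0.68 to -0.31), with 0 of 9 probes higher in IRD1. Both strains kept a level above 1 at each of these probes, and from 3 to 10 kb the difference was 0.05. In the highest of the 20 bins of arm probes by level, the difference was -0.22 (-0.44 to 0.01). On the contig the 6 probes beyond 39300 had 1.45 in IRD1 and 2.10 in IRD2, a difference of -0.78, and the 7 probes within 3 kb left of 19200 had 1.14 in IRD1 and 1.53 in IRD2, a difference of -0.37 with 1 of 7 higher in IRD1. The right side thus had the smaller difference on chromosome 2 and the larger one on the contig. The differences outside both edges kept their sign with each scaling. They were smaller with equal arm spread, at -0.38 on the left, -0.13 on the right and -0.36 right of the contig part. Equal centromere levels multiply IRD2 by 1.06, so at these positive levels that scaling could only enlarge a negative difference. With means in place of medians over probes the left value was -0.93.

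The input channel also set the strains apart at these edges. Input reads the DNA present whether or not it carries the mark, and it is given relative to the array median. At 2131200, the next probe inward of 2130900 at the left edge, the input was -0.37 in IRD1 and -8.16 in IRD2, where it was not well above background. At 2138400, the last probe inside the right edge, it was -0.01 in IRD1 and -7.95 in IRD2, a spot marked as an outlier on the IRD2 array. At 2138700, the next probe outward, the order was the opposite, with -7.21 in IRD1, not well above background, and -0.59 in IRD2. At 39300, the last probe of the contig part, it was -0.30 in IRD1 and -7.89 in IRD2, not well above background. For a probe not well above background only a bound holds, taken against the lowest input that was well above background on that array or the probe's own signal, whichever was higher. The IRD1 input was at least 191-fold higher at 2131200 and at least 193-fold higher at 39300, and the IRD2 input was at least 92.7-fold higher at 2138700. These 4 probes, which have no ratio on the array with the low input, were among the 6 of the whole array whose input differed by at least 3. The neighbouring probes kept their input on both arrays: at 2130600 it was 0.25 in IRD1 and -0.23 in IRD2, and at 2130900 it was -0.22 in both. What lowered the input at these single probes, and its part in the edge differences, was not tested.

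The centromeres were also higher in IRD1, by less. Their level was 6.28 in IRD1 and 5.90 in IRD2, and the difference was 0.34 (0.14 to 0.53) over 199 probes, of which 181 were higher in IRD1 and 3 by at least 1. The 3 centromeres gave similar values, at 0.33 for centromere 1 (56 of 61 probes higher in IRD1), 0.33 for centromere 2 (41 of 46) and 0.36 for centromere 3 (84 of 92). The difference was shared between the channels, with 0.19 in ChIP and -0.19 in input. The chromosome 2 part of the mating-type domain had the same input difference, -0.19, but a larger ChIP difference, 0.57. Of the 199 probes, 184 carry an f or m at the end of their names, a suffix that the files leave unexplained; the difference was 0.34 over those and 0.25 over the 15 others. Scaling the arrays to equal centromere levels removes the difference by construction (-0.025), and equal arm spread and loess gave 1.36 and 2.41.

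The stretches between the repeat blocks were pooled for each centromere, so the part where the kinetochore is built was not separated out. In both strains these stretches lay below the lower quartile of arm probes, -0.44 in IRD1 and -0.49 in IRD2. In centromere 1 they stood at -1.61 in IRD1 and -1.63 in IRD2, in centromere 2 at -1.69 in IRD1 and -1.82 in IRD2, and in centromere 3 at -1.19 in IRD1 and -1.28 in IRD2. The differences there were 0.05, 0.16 and 0.00. Among the single blocks the largest difference was 0.60 over 14 probes from 1108200 to 1122300 on chromosome 3, with 6.66 in IRD1 and 6.12 in IRD2. Its input was lower in IRD1 by 0.40. The smallest among blocks of more than 1 probe was 0.10 (0.02 to 0.63) over 9 probes from 1640400 to 1645500 on chromosome 2. Its levels were 6.32 in IRD1 and 5.85 in IRD2, and 8 of its 9 probes were higher in IRD1. With unrounded signals its difference was 0.38, and it was then not the smallest.

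**Figure D2:**
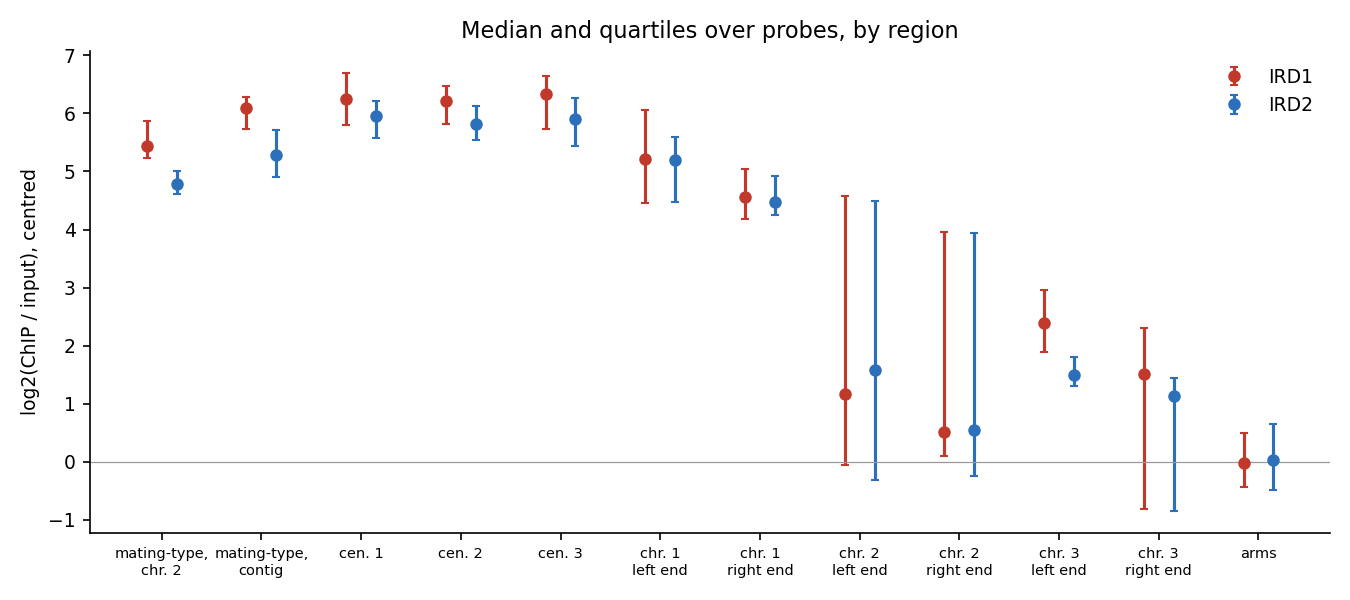
Median H3K9me3 level (log2 of ChIP over input, centred) in IRD1 (left of each pair) and IRD2 (right), for the parts of the mating-type domain, the 3 centromeres, the 6 chromosome ends and the arms, with bars from the lower to the upper quartile over probes. On this scale IRD1 is higher in both mating-type parts, the centromeres and the ends of chromosome 3; with equal centromere levels the centromere differences lie between -0.06 and 0.01.

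The ends of chromosomes 1 and 2, taken as the outer 40 kb, had almost the same pooled level. It was 4.37 in IRD1 and 4.38 in IRD2, and the difference was 0.09 (-0.16 to 0.34) over 445 probes, of which 256 were higher in IRD1, 6 by at least 1. Its sign depended on the scale, since equal centromere levels gave -0.15 and equal arm spread 0.69. The pooled value covered opposite differences along the ends of chromosome 1.

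The outermost part of the left end of chromosome 1 was higher in IRD1. In the first 5 kb the level was 6.27 in IRD1 and 5.66 in IRD2, a difference of 0.56 with all 17 probes higher in IRD1. From 5 to 10 kb it was 6.19 in IRD1 and 5.53 in IRD2, a difference of 0.72, again on all 17 probes. The input of these bins was lower in IRD1, by 0.36 and 0.38, so about as much of the difference lay in the input as in the ChIP channel. From 10 to 15 kb the difference was -0.12, and from 35 to 40 kb, at the inner border, it was -0.15 with 3 of 17 probes higher in IRD1. With equal centromere levels the outer bins remained higher in IRD1, by 0.20 and 0.37.

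At the right end of chromosome 1 the enriched domain faded inward earlier in IRD1. The outer 35 kb had 4.68 in IRD1 and 4.54 in IRD2, a difference of 0.09. From 35 to 55 kb inward of the last probe, the level was 2.59 in IRD1 and 3.16 in IRD2, the difference was -0.51 (-0.79 to -0.30), and 5 of 67 probes were higher in IRD1. By bins of 5 kb the difference was -0.37 from 35 to 40 kb, -0.59 from 40 to 45 kb, -0.86 from 45 to 50 kb and -0.38 from 50 to 55 kb, and from 55 to 60 kb it was -0.07. No probe between 40 and 50 kb was higher in IRD1 (0 of 16 and 0 of 17). The input difference of the bin from 45 to 50 kb was 0.10 and the ChIP difference -0.73. Only 5 of the 67 probes carry a suffix with f or m.

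The slope can be read probe by probe. At 5530500 the level was 2.96 in IRD1 and 3.73 in IRD2. At 5527500 it was 1.57 in IRD1 and 3.00 in IRD2. At 5525100 it was 0.99 in IRD1 and 1.85 in IRD2. By 5523300 both strains were near the array median, with 0.26 in IRD1 and 0.57 in IRD2. Running medians of 5 probes at or above 3 reached 42.0 kb inward in IRD1 and 46.5 kb in IRD2, and those at or above 1 reached 49.2 kb in IRD1 and 50.4 kb in IRD2. The offset was thus larger at high levels than at the foot of the slope. The difference over the 35 to 55 kb stretch was -0.71 with equal centromere levels, -0.30 with loess and -0.10 with equal arm spread. At positive levels of IRD2, equal centromere levels could only enlarge it.

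**Figure D3:**
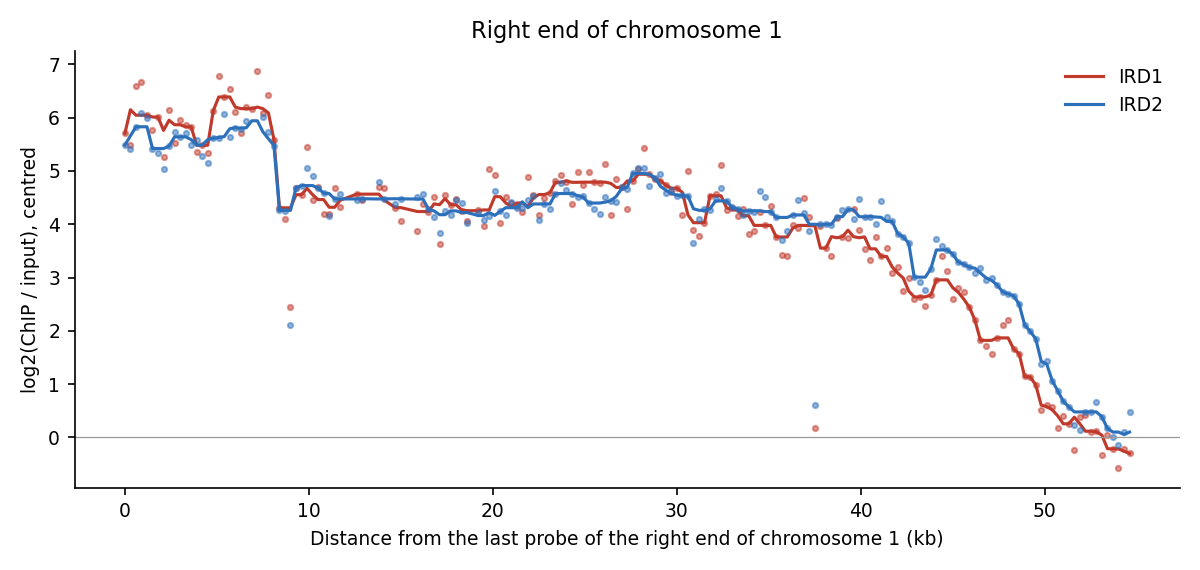
H3K9me3 level (log2 of ChIP over input, centred) per probe (points) and as 5-probe running medians (lines) in IRD1 and IRD2, against the distance in kb from the last probe of the right end of chromosome 1. The lines run close together in the outer 35 kb, and the IRD1 line lies below the IRD2 line between 40 and 50 kb.

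The other inner borders lay within a few probes of each other. Levels at or above 3 extended for 36.3 kb in both strains on the left of chromosome 1, 15.3 kb in both on the left of chromosome 2 and 11.7 kb in both on its right. At a threshold of 1 the left end of chromosome 2 reached 16.2 kb in IRD1 and 18.3 kb in IRD2, where 5 probes between 15 and 20 kb had a difference of -0.33. Neither end of chromosome 2 was enriched between 20 and 30 kb inward, where the levels of the 5 kb bins lay between -0.25 and 0.27 in IRD1 and between -0.30 and 0.12 in IRD2. Between 45 and 50 kb their levels were -0.35 in IRD1 and -0.71 in IRD2 on the left, and -0.23 in IRD1 and -0.49 in IRD2 on the right.

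The ends of chromosome 3, which in fission yeast hold the ribosomal DNA repeats, differed more than those of chromosomes 1 and 2. The outer 20 kb had 2.10 in IRD1 and 1.38 in IRD2, a difference of 0.72 (0.34 to 1.04) over 86 probes. Of these, 75 were higher in IRD1 and 24 by at least 1, against 0.304% of arm probes. At the left end the level was 2.40 in IRD1 and 1.49 in IRD2, and all 49 probes were higher in IRD1. At the right end it was 1.51 in IRD1 and 1.14 in IRD2, with 26 of 37 probes higher in IRD1. The right end falls into parts: the 23 probes of the outer 15 kb were all higher in IRD1, and from 15 to 20 kb the levels were near -0.84 in IRD1 and -0.85 in IRD2.

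Within the left end of chromosome 3 the difference was 0.74 in the first 5 kb, 1.19 from 5 to 10 kb, 0.61 from 10 to 15 kb and 1.28 from 15 to 20 kb. It was still 0.66 from 20 to 25 kb and turned to -0.20 from 25 to 30 kb. Every measured probe there carries the suffix f or m, and the input stood at 2.34 in IRD1 and 2.52 in IRD2, well above the array median. The input difference was -0.15 and the ChIP difference 0.76 at the left end. Runs of 5-probe medians at or above 2 reached 12.3 kb inward at the left end and 12.6 kb at the right end in IRD1, and IRD2 had no such run at either end. The difference over both ends was 0.63 with equal centromere levels, 0.96 with equal arm spread and 2.42 with loess. At positive levels equal arm spread could only raise it.

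**Figure D4:**
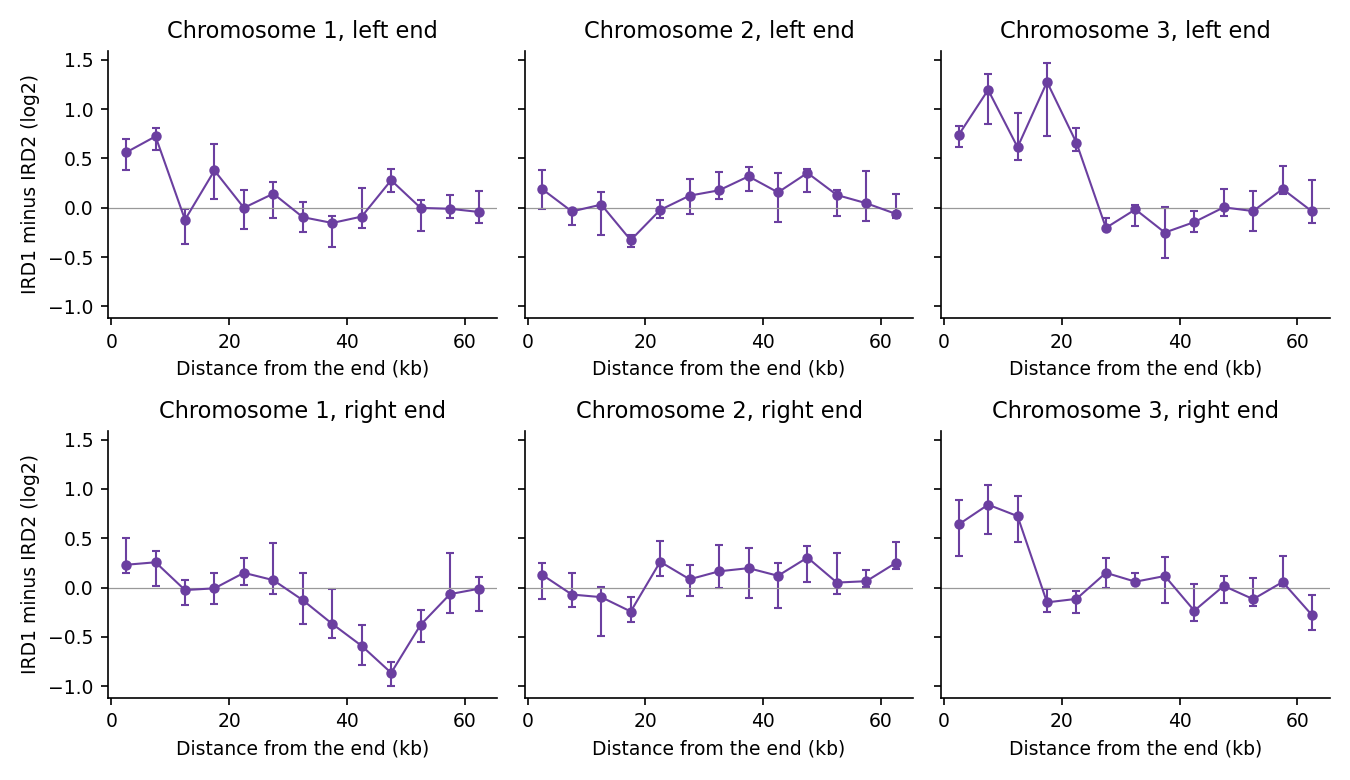
Difference in H3K9me3 level, IRD1 minus IRD2 (log2), in bins of 5 kb from each end of the 3 chromosomes, with bars from the lower to the upper quartile over probes. Values lie between -0.33 and 0.35 at both ends of chromosome 2, reach -0.86 between 45 and 50 kb at the right end of chromosome 1, and lie above 0.6 in the outer 25 kb of the left end of chromosome 3.

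Small enriched runs away from the main domains differed by between -0.07 and 1.27. The largest difference was at 115500 to 117000 on chromosome 3, where the 6 probes of the run had 5.66 in IRD1 and 4.33 in IRD2, a difference of 1.27 (0.92 to 1.43) or 2.42-fold. At 116100, its highest IRD1 probe, the level was 6.24 in IRD1 and 4.32 in IRD2. The probe to its left, 115800, had 5.95 in IRD1 and 4.48 in IRD2, and the outermost probe, 117000, had 1.98 in IRD1 and 1.53 in IRD2. All 6 probes were higher in IRD1, none carries the suffix f or m, and the ChIP channel differed by 1.16 against -0.11 in the input. The difference stayed at 0.99 with equal centromere levels. An array reads a sequence and not its place in the genome, so where this DNA lies in these strains was not tested. Beside the run, the level at 115200 was 2.58 in IRD1 and 1.83 in IRD2, and at 114600, on the arm, it was -0.38 in IRD1 and -0.33 in IRD2.

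A second run on chromosome 3, from 275400 to 276900, had 5.76 in IRD1 and 5.28 in IRD2, a difference of 0.50 over 6 probes, all with the suffix f, and 0.15 with equal centromere levels. On chromosome 2, 4 probes from 2115900 to 2117100, left of the mating-type domain, had 5.25 in IRD1 and 4.73 in IRD2, a difference of 0.69. On the mating-type contig a run from 4200 to 5400 had 5.50 in IRD1 and 4.92 in IRD2, a difference of 0.54. On chromosome 1 the run from 4907700 to 4908300 had 5.69 in IRD1 and 5.32 in IRD2, a difference of 0.38, that from 60600 to 61500 had 4.24 in IRD1 and 4.02 in IRD2, a difference of 0.19, and the 2 probes of the run at 40500 had 3.23 in IRD1 and 3.30 in IRD2, a difference of -0.07. With equal centromere levels the runs at 60600 and 40500 were at -0.05 and -0.28.

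Across the genome, 8204 windows of 1.5 kb held at least 3 probes measured on both arrays. A call required a median of at least 1 in one strain and under 1 in the other, with 1 or more between them. On these terms 0 windows (0%) were called higher and 0 (0%) lower in IRD1, so no window of this size passed all 3 conditions. Without the requirement on the level, 13 windows (0.158%) were higher in IRD1 by at least 1 and 3 (0.0366%) were lower. A lower limit of 0.6 on the difference, with the level rule kept, called 1 of the 8204 windows higher and 24 lower in IRD1. With no limit on the difference, 61 windows were at or above 1 in IRD1 alone and 461 in IRD2 alone. The part of the wider spread of the IRD2 ratios in these counts was not tested.

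The 3 lower windows were those at the borders described above, of which 1 counts as arm (0.0126% of 7944 arm windows). Window 2130000 to 2131500 on chromosome 2, at the left mating-type edge, had 1.59 in IRD1 and 4.06 in IRD2. Window 5527500 to 5529000 on chromosome 1, on the slope of the right end, had 1.82 in IRD1 and 3.08 in IRD2. Window 18000 to 19500 on the mating-type contig had 1.29 in IRD1 and 2.42 in IRD2. All 3 were enriched in both strains and stronger in IRD2.

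The 13 higher windows were of different kinds. In the domains and contigs they included the run at 115500 on chromosome 3, 3 windows at that chromosome's left end, 1 in the mating-type contig (22500 to 24000, with 5.85 in IRD1 and 4.89 in IRD2) and 3 on the array's contigs named pNSU. The other 5 lay on the arms, where they were 0.0629% of the windows, and none of them reached a level of 1 in either strain. The largest was 3502500 to 3504000 on chromosome 1, with -0.39 in IRD1 and -1.58 in IRD2, a difference of 1.49. It belonged to a stretch from 3500700 to 3504000 whose 12 probes were all higher in IRD1, with -0.18 in IRD1 and -1.22 in IRD2. Window 1950000 to 1951500 on chromosome 2 had -0.49 in IRD1 and -1.73 in IRD2, and window 3648000 to 3649500 on chromosome 1 had 0.36 in IRD1 and -0.66 in IRD2. At these windows the IRD2 level lay under the lower quartile of its arm probes, -0.49, and IRD1 was nearer to the array median. Input differed by -0.17 at 3502500, -0.49 at 1950000 and -0.14 at 3648000.

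The arms differed in the spread of their levels. With arm probes sorted into 20 bins by the mean of both arrays, the lowest bin had -1.28 in IRD1 and -1.48 in IRD2, a difference of 0.20, and the highest had 1.41 in IRD1 and 1.63 in IRD2, a difference of -0.22. Between them the difference became lower up to bin 17, passing 0 in bins 7 and 8, while the input difference stayed between 0.01 and 0.05. At a threshold of 1, 552 windows stood at or above 1 in IRD1 and 952 in IRD2. Of these, 491 were shared (88.9% of those in IRD1 and 51.6% of those in IRD2), 61 were at or above 1 in IRD1 alone and 461 in IRD2 alone. At a level of 3 the counts were 151 in IRD1 and 150 in IRD2, with 146 shared. A low enrichment and a wider spread of ratios on the array cannot be told apart at the lower threshold.

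**Figure D5:**
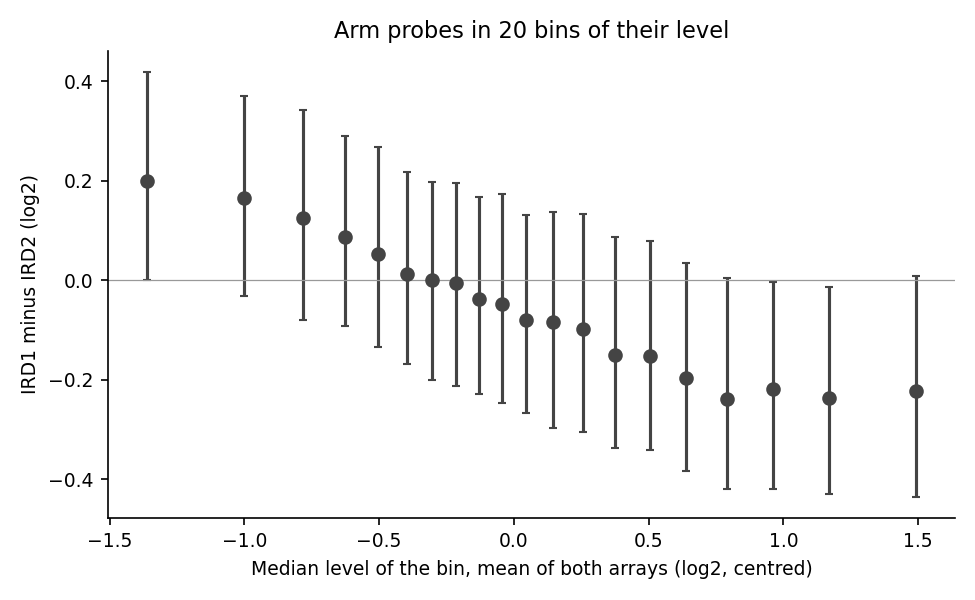
Difference in H3K9me3 level, IRD1 minus IRD2 (log2), for arm probes in 20 bins of their level, with bars from the lower to the upper quartile over probes, against the median level of the bin. The medians run from 0.20 in the lowest bin to -0.22 in the highest, and the smallest, -0.24, is in bin 17.

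The position of a probe on the array moved with the difference as well. In 20 bands of array rows, the median difference of arm probes ran between 0.25 in the first band and -0.24 in band 12, and the input difference between -0.28 and 0.11. The probes of the mating-type domain, the centromeres and the ends of chromosomes 1 and 2 were spread over all 20 bands. With the band medians removed from each array, the difference was 0.73 in the mating-type domain, 0.37 at the centromeres, 0.09 at the ends of chromosomes 1 and 2, and -0.63 and -0.45 outside the left and right mating-type edges.

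Away from the mating-type edges and 2 single spots of chromosome 2, the inputs of the strains were close. Over 126 segments of 100 kb the input difference lay between -0.04 and 0.07, and the lowest of them held centromere 2. Of 8330 windows of 1.5 kb, 0 differed in input by 1 or more in either direction, and 7 were lower in IRD1 by at least 0.5. Of the latter, 2 lay at the left end of chromosome 1, 3 on chromosome 3 and 2 on the mating-type contig. Those on chromosome 3 started at 1078500 and 1084500, inside a block of centromere 3, and at 16500, at the left end. The contig window from 21000 to 22500 had little input on both arrays. Both strains had little input at each probe from 2133000 to 2133900 on chromosome 2, inside the mating-type domain. In IRD1 it lay between -6.29 at 2133300 and -9.22 at 2133900. In IRD2 it lay between -7.06 at 2133000 and -9.67 at 2133900. At 2117100 it was -8.06 in IRD1 and -8.56 in IRD2. Mitochondrial DNA, which carries no histones, had an input of 4.26 in IRD1 and 4.34 in IRD2. Its ratio of ChIP over input was -1.74 in IRD1 and -1.98 in IRD2.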

How the data were processed

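Random-primed PCR was followed by coupling of Cy5 to precipitated and Cy3 to input DNA, per the labels' protocols, so ratios are ChIP over input. Per the file headers, Agilent Feature Extraction 12.0.3.1 gave the spot intensities, and the deposited processed intensity is background-subtracted and dye-normalized with a linear factor. The IRD1 file gives them to 3 significant digits. The deposited value table holds a linear, uncentred ratio of red over green, which differed from the processed signals by at most 0.013 on the log2 scale (column medians 1.02 for IRD1 and 1.09 for IRD2). Per the file headers both arrays were on 1 slide and in 1 scan.

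From these, log2 ratios of the 41551 genomic probes were computed with Python 3.11.15 and centred on each array's median. The 1417 control spots were left out, as were outlier spots (7.33% of probes in IRD1, 0.539% in IRD2) and probes with an input not well above background (6 in IRD1, 7 in IRD2). Median input was 57.8 times the local background in IRD1 and 89.9 times in IRD2. The number of arrays limits the precision. No aligner, annotation or genome build is given in the sources used here, and neither genes nor sequences were assigned.

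Domains were runs of a 5-probe running median of at least 3 in the mean of both arrays, joined across gaps up to 3 kb. Internal runs up to 20 kb apart formed the centromeres. Ends were the outer 40 kb of chromosomes 1 and 2 and the outer 20 kb of chromosome 3. Windows held at least 3 probes in 1.5 kb. Named were the 10 largest windows each way, every domain run, probes within 3 kb of the mating-type edges and probes whose input differed by at least 3, and of these the text gives the ones it turns on. Regions, lists and alternatives were chosen with earlier results of these data known. The rule for windows was first tested on simulated arrays. The noise added there was independent between probes, whereas neighbouring arm differences of the real arrays correlated at 0.50. That test therefore does not show how the rule behaves on the real differences. Alternatives were other normalizations (normexp with offset 50 and loess, in limma 3.58.1), other filters, other thresholds, means over probes and the deposited table. Normexp ran on median spot signals in place of the mean signals planned. Removal of array-row medians, unrounded signals and equal arm spread were added after the data were seen.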

Additional observations from a re-analysis of the deposited data

How the results depend on the processing

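Of 154 alternative values over 13 results, 125 stayed within the limits, 27 moved and 2 turned sign. The limits were 0.24 on the log2 scale, the noise of a single arm probe estimated from neighbouring steps, or 1.5 times for counts. Some of the 125 could not move. Leaving out probes with suffix f or m removed none outside the chromosome 2 edges or in the run at 115500 on chromosome 3. A difference limit of 1.5 could call no window where a limit of 1 called 0. The deposited table holds nearly the same ratios. The arrays' scale moved the most. With equal centromere medians the centromeres were at -0.025 and the ends of chromosomes 1 and 2 at -0.15, the mating-type domain at 0.39, the pNSU contigs at 0.031 and the run at 115500 on chromosome 3 at 0.99. The centromere value follows from that scaling's construction; for the others the cause was not tested. With loess within each array the values were 2.41 at the centromeres, 2.42 at the ends of chromosome 3, 0.79 at the ends of chromosomes 1 and 2, 1.74 in the mating-type domain and 1.69 on the pNSU contigs, and 28 windows were called higher in IRD1. Equal arm spread multiplies IRD2 by 0.83 and gave 1.36 at the centromeres, 0.69 at the ends of chromosomes 1 and 2, 2.03 at the chromosome 3 run, 1.63 in the mating-type domain, 1.06 on the pNSU contigs, -0.10 at the inner right end of chromosome 1, -0.38, -0.13 and -0.36 outside the left, right and contig edges, and 1 window called higher. Means over probes gave -0.93 outside the left edge and 2 windows called lower. Against 0 of 8204 windows called either way, normexp called 3 higher. A difference limit of 0.6 called 1 higher and 24 lower, and no limit on the level gave 13 higher and 3 lower. Leaving out probes with suffix f or m left 3 of the 6 probes whose input differed by at least 3. The differences of the mating-type domain, its edges, the chromosome 3 ends and run, the pNSU contigs and the inner right end of chromosome 1 kept their sign in every alternative run. For the positive ones among them, equal arm spread could only raise the difference at probes with a positive level. For the negative ones, equal centromere medians multiply IRD2 by 1.06 and could only enlarge the difference at such probes. No paired analysis was possible because each strain has 1 array, and no array could be left out.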

Other observations

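The array's contigs named pNSU, whose probes all carry the suffix f or m, had 4.54 in IRD1 and 4.26 in IRD2, a difference of 0.31 with 107 of 127 probes higher in IRD1. The largest among contigs of more than 3 probes was pNSU77, with 3.76 in IRD1 and 3.58 in IRD2, where the difference per probe was 0.60 and all 23 probes were higher in IRD1. Its input was 1.25 in IRD1 and 1.58 in IRD2. On pNSU71 the levels were 0.46 in IRD1 and 0.01 in IRD2, with 15 of 29 probes higher in IRD1. The difference per probe there was only 0.10 (-0.12 to 0.64).

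At 2 single spots of chromosome 2 the IRD2 array stood apart in both channels. At 161700 the input was 0.01 in IRD1 and 3.55 in IRD2, and the level -0.72 in IRD1 and 3.90 in IRD2. At 2709300 the input was -1.03 in IRD1 and 2.36 in IRD2, and the level -0.10 in IRD1 and 5.46 in IRD2. Neither spot was marked as an outlier, and no window around them was called.

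On the arms, difference values of neighbouring probes correlated at 0.50 and those of the input at 0.07, described over probes of the same arrays.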
